A study of Mus musculus with 66 samples.

Results

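Formalin fixation of BC57 cells was followed across all genes in 6 of the series' 66 RNA sequencing libraries: 3 made from formalin-fixed, paraffin-embedded (FFPE) cells and 3 from fresh frozen (FF) cells, each from 250 pg of total RNA with the SMARTer Pico kit. Their labels put the 6 in these groups, and the main counts are also given without FFPE library 3, which stood apart from the others. BC57 is a mouse bladder cancer cell line, grown in DMEM with 10% FBS. Per the labels' protocols 1 cell pellet was divided. The FFPE group is the part held in buffered formalin for 24 hours and then set in a wax block, from which RNA was taken out of 10 slices of 5 µm with a deparaffinization solution and an RNeasy FFPE kit. The FF group is the part snap-frozen in liquid nitrogen, with RNA taken by an RNeasy mini kit. No drug or genetic change separates the groups, and both RNAs were treated with DNase. The extraction kit changed together with the fixation, so both cannot be told apart. Per the series' design text each sample was made into libraries 3 times per kit and input, so p-values measure the technical spread between these libraries, not that between cultures.

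SMARTer Pico libraries start from total RNA. A random primer and template switching give a strand-specific library, and ribosomal sequences are then depleted, so RNAs with and without a poly(A) tail are both read. Formalin adds methylol groups to bases and cross-links RNA to protein, and RNA from wax blocks is broken into short pieces. Several RNA classes that such libraries read are usually missed by poly(A) selection. They include the small RNAs made by RNA polymerase III, such as Y and vault RNAs, the small nuclear RNAs of the spliceosome, and the snoRNAs, which guide the modification of ribosomal RNA. Long RNAs that stay in the nucleus, such as Neat1 and Malat1, and the transcripts of the mitochondrial genome are further classes of this kind.

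Sequences of 6 short transcripts from these classes are shown because their RNAs were among those that differed most between FFPE and FF libraries, and because their length sets them apart from most messenger RNAs. They are 5′ to 3′ and come from the GENCODE M21 transcripts of the GRCm38 build. Rny1 is a Y RNA, which binds the Ro60 protein (chr6:47788069-47788180, minus strand, 112 nt). Its capitals mark the run of T in which polymerase III transcripts end. Rnu11 is a small nuclear RNA of the minor spliceosome (chr4:132270080-132270213, minus strand, 134 nt), and its capitals mark a stretch of the kind that Sm proteins bind. Snord118 is a box C/D snoRNA with a role in ribosomal RNA processing (chr11:69073427-69073561, plus strand, 135 nt), with boxes C and D in capitals. The mitochondrial tRNAs mt-Th for histidine (chrM:11546-11612, plus strand, 67 nt), mt-Tl2 for leucine (chrM:11671-11741, plus strand, 71 nt) and mt-Tp for proline (chrM:15356-15422, minus strand, 67 nt) have their anticodon in capitals.
Rny1: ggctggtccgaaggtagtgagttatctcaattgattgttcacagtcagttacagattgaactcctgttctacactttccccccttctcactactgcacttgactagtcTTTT
Rnu11: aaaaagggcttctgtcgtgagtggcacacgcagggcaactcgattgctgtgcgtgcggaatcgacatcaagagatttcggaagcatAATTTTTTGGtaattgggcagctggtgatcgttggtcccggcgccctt
Snord118: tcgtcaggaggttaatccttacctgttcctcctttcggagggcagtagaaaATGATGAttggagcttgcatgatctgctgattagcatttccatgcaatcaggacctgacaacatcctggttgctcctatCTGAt
mt-Th: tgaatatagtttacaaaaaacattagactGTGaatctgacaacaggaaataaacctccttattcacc
mt-Tl2: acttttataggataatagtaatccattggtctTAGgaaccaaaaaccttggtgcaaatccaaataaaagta
mt-Tp: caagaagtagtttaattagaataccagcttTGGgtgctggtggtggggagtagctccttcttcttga

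Total gene counts were 4126846, 4377736 and 2458215 in the FFPE libraries and 3627437, 7152648 and 7000891 in the FF libraries. FFPE library 3 was the shallowest, yet 1877 genes had at least 5 counts in it and none in the other 5 libraries, against 116 to 280 such genes in each of those. With all libraries thinned to 2458215 counts, 12898, 12555 and 15453 genes had at least 5 counts in FFPE libraries, against 12709, 12141 and 12397 in FF libraries (two-sided exact permutation p = 0.2). Across the 12388 genes tested, log2 levels of FFPE library 3 correlated with the other FFPE libraries at r = 0.715 and 0.740. FFPE libraries 1 and 2 correlated with each other at 0.809, and FF libraries at 0.887 to 0.914. With FF libraries, FFPE library 1 correlated at 0.821 to 0.847, above its value with FFPE library 2, FFPE library 2 at 0.798 to 0.818 and FFPE library 3 at 0.712 to 0.733. Levels below are CPM, gene counts scaled to a common library size with TMM factors.

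Epithelial markers were present in every library, among them Epcam at 295 to 423 CPM in FFPE and 434 to 507 CPM in FF libraries, and the cadherin gene Cdh1 at 252 to 334 CPM in FFPE and 338 to 385 CPM in FF libraries. The uroplakin genes Upk1a, Upk3a and Upk3b, which mark the mature bladder lining, were at 5.44 CPM or less in all 6 libraries, whereas Upk1b stood at 86.3 to 120.3 CPM in FFPE and 90.7 to 122.4 CPM in FF libraries. No fibroblast, smooth muscle, endothelial or immune gene was called in either fit. Summed levels of the fibroblast list were 15.1 to 60.6 CPM in FFPE and 16.2 to 24.2 CPM in FF libraries, and those of the immune list 7.33 to 72.8 and 18.6 to 24.8 CPM. The smooth muscle list summed to 31.05 to 69.4 CPM in FFPE and 23.3 to 25.8 CPM in FF libraries, and the endothelial list to 1.42 to 43.8 and 7.88 to 21.9 CPM. The highest value of each of these lists was in FFPE library 3, where the blood cell gene Slc4a1 also reached 17.3 CPM. Their part in the results was not tested. Lyz2 of myeloid cells and Emcn of endothelial cells were at 0 in all 3 FFPE libraries, and Ptprc of white blood cells and Kdr of endothelial cells in FFPE libraries 1 and 2. These markers were picked after their values were seen, and other members of their lists were read. The immune list had 3 tested members, with log2 fold changes from -1.18 to 1.66, Cd68 being the highest. The endothelial list had 2, Flt1 (1.51) and Egfl7 (-1.40).

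The make-up of the libraries differed by RNA class. Messages of nuclear protein-coding genes took 64.2 ± 0.296% of gene counts in FFPE and 71.1 ± 0.142% in FF libraries (SD, n = 3 each). Mitochondrial messages took 2.00 ± 0.217% in FFPE and 0.542 ± 0.0139% in FF libraries, and mitochondrial rRNA 9.21 ± 1.28% and 5.48 ± 0.382%. The small RNAs on the list of polymerase III and spliceosome RNAs took 1.11, 1.01 and 1.42% in FFPE libraries, against 0.405, 0.264 and 0.345% in FF libraries. For snoRNA genes the shares were 0.375, 0.273 and 0.797% in FFPE libraries and 0.126, 0.0635 and 0.0944% in FF libraries. Long intergenic RNAs, without genes that resemble the ribosomal repeat, took 1.04, 0.982 and 1.19% in FFPE and 0.419, 0.365 and 0.392% in FF libraries. The groups did not overlap in any of these classes, and each gave the smallest two-sided exact permutation p that 3 against 3 libraries allow, 0.1. Genes that resemble the ribosomal repeat took 16.2 to 17.1% in FFPE and 17.4 to 18.4% in FF libraries, a narrow gap, also without overlap.

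**Figure D1:**
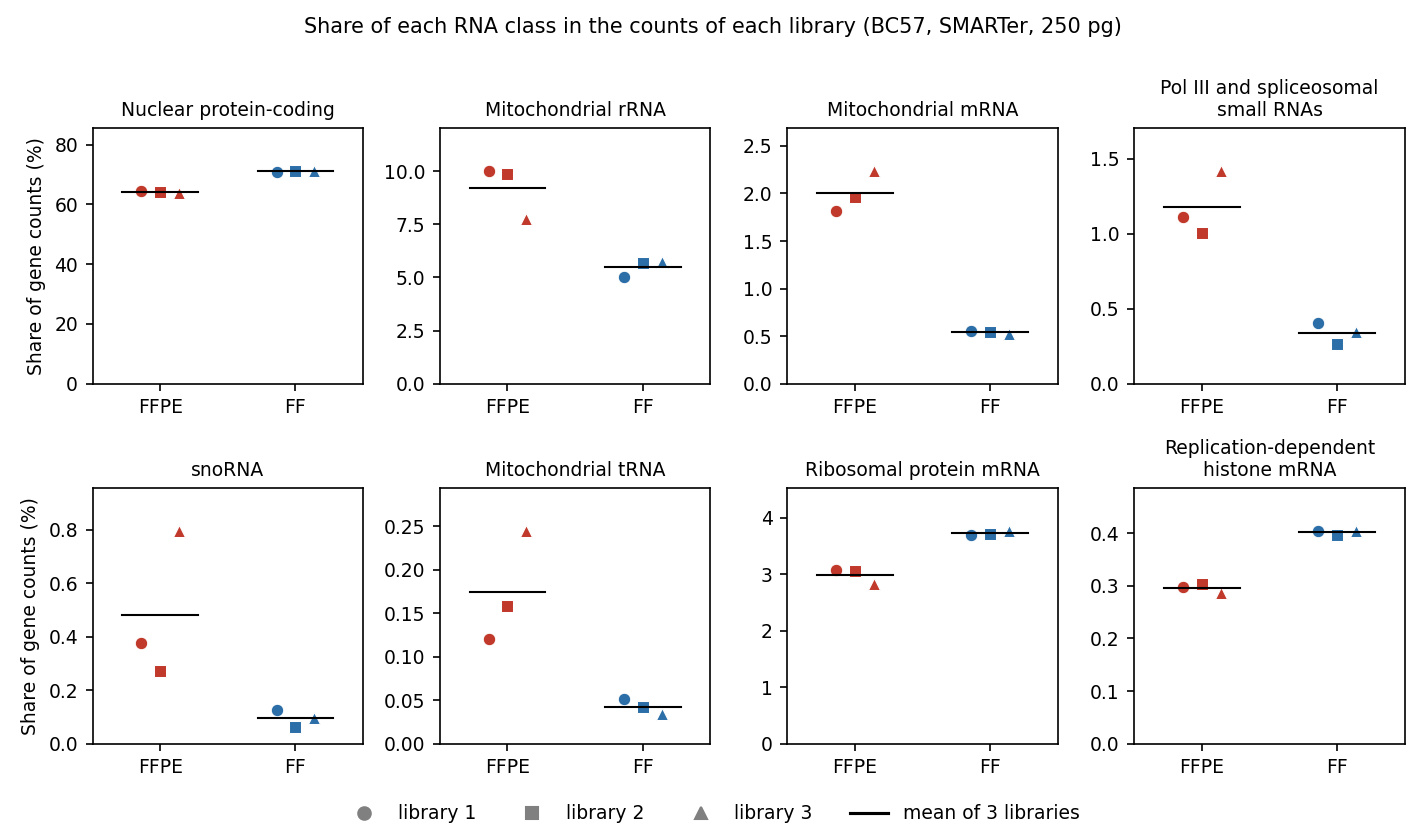
Share of each RNA class in the gene counts of each library, in percent, for FFPE (left) and FF (right) libraries; each point is a library and each line the mean of 3. Mitochondrial messages sit at 1.81 to 2.24% in FFPE and 0.526 to 0.553% in FF libraries, while nuclear protein-coding genes sit lower in all 3 FFPE libraries.

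Over all genes, 273 of 12388 differed between FFPE and FF libraries at an adjusted p under 0.05 (2.2%), 194 higher in FFPE (1.57%) and 79 lower (0.638%). The higher genes moved further. Their median log2 fold change was 2.19, and 168 differed by at least 2-fold, against a median of -0.67 and 9 genes among those lower. Leaving out FFPE library 3 gave a median of 1.64 for the higher genes, with 159 of at least 2-fold, and of -0.68 for the lower, with 26. Without FFPE library 3, 311 of 12963 genes differed (2.4%), 199 higher (1.54%) and 112 lower (0.864%), and 218 of these were among the 273, which is 79.9% of the 273 and 70.1% of the 311. The count was 127 without FFPE library 1 and 139, 67 and 92 without FF library 1, 2 or 3.

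Calls were unevenly spread over the classes, beside 1.57% called higher and 0.638% lower over all genes tested. Of 232 small noncoding RNA genes tested, 53 were higher in FFPE (22.8%) and 1 lower, and of 660 long noncoding RNA genes 22 were higher and 1 lower. Among mitochondrial genes, 10 of 13 protein genes, 2 of 2 rRNA genes and 14 of 20 tRNA genes were higher and none was lower. Of 10917 nuclear protein-coding genes, 84 were higher (0.769%) and 75 lower (0.687%). With FFPE library 3 left out, the small noncoding count was 41 higher and 1 lower of 268, and the nuclear protein-coding count 101 higher and 107 lower of 11241.

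Small RNAs of polymerase III and of the spliceosome were higher in FFPE libraries as a group. Of 13 tested members of this list of 22, 9 rose and none fell, beside 1.57% called higher over all genes tested. All 13 had a positive log2 fold change (median 2.89, against 0.02 over all genes tested). Genes enter the test through a filter on low counts, which the FFPE libraries alone can satisfy. For members scarcely read in FF libraries, such as Rnu11, the positive sign is therefore no separate result. Rny1, the Y RNA shown above, had 63.3, 40.2 and 162.0 CPM in FFPE libraries, against 7.67, 2.61 and 4.64 CPM in FF libraries. All FFPE values lay above all FF values, as they did for 10.2% of all genes tested, with 11.1% the other way round, and the log2 fold change was 4.19 (SE 0.55, adjusted p = 0.00128). Rnu11 had 42.1, 26.2 and 154.4 CPM in FFPE libraries, against 1.10, 0 and 2.67 CPM in FF libraries (5.83, SE 0.89, adjusted p = 0.00400). FFPE library 3 held the highest value of both genes, and both calls held when any 1 of the 6 libraries was left out. The log2 fold change of Rny1 was 3.42 without FFPE library 3, and that of Rnu11 was 4.72 without it and 5.16 and 7.42 without FF library 2 or 3.

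Vaultrc5, a vault RNA on chromosome 18, had 42.3, 32.6 and 336.7 CPM in FFPE libraries and 4.11, 1.24 and 2.11 CPM in FF libraries (5.88, SE 0.88, adjusted p = 0.00331). Its log2 fold change was 3.97 without FFPE library 3, and its call was lost without FF library 2 (adjusted p = 0.0532). Rpph1, the RNA of ribonuclease P, and Rmrp, the RNA of the related enzyme RNase MRP, rose by 1.84 and 1.89 (adjusted p = 2.06e-04 and 2.79e-04), and both calls held without any 1 library. Exons of Rpph1, Rmrp and Rnu11 overlap those of other annotated genes. Rn7sk, which holds the transcription elongation factor P-TEFb inactive, had 3035, 3127 and 3353 CPM in FFPE libraries, against 1353, 1125 and 1253 CPM in FF libraries. That was the smallest rise on the list, 1.35 (SE 0.10), with a narrow spread in both groups. Rnu3a rose by 4.23, but its 2 annotated copies overlap, and its call was lost without FFPE library 1 or FF library 2 or 3 (adjusted p = 0.0775, 0.0916 and 0.124). It stood at 3.35 without FFPE library 3 and 6.21 without FF library 1. The count of 9 was 6 without FF library 2. A pair of copies of the small ribosomal RNA transcribed by polymerase III stood among the 10 genes of largest rise that met the naming rule given below. n-R5s193 had 237.9, 136.9 and 531.1 CPM in FFPE libraries, against 15.9, 2.47 and 7.32 CPM in FF libraries (5.23, SE 0.60), with 4.55 without FFPE library 3 and 5.92 without FF library 1. n-R5s102 rose by 5.14, a call lost without FFPE library 1 or 3 or FF library 2 or 3. Its value was 4.22 without FFPE library 3, and 6.83 and 4.44 without FF library 1 or 2. Many near-identical copies of this gene exist, so the copy is uncertain.

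Of 147 snoRNA and Cajal body RNA genes, 63 passed the filter on low counts. Of these, 22 rose and none fell, beside 1.57% called higher over all genes tested, and all 63 had a positive log2 fold change (median 1.97). Members scarcely read in FF libraries, such as Snord118 and Snora34, can pass that filter through the FFPE libraries alone. Their positive sign is therefore no separate result. Without FFPE library 3, 17 of 65 rose (median 1.78), and the count was 5 without FFPE library 1 and 11, 6 and 10 without FF library 1, 2 or 3. Snord118 had 38.6, 35.7 and 182.6 CPM in FFPE libraries, against 3.29, 0.824 and 0.844 CPM in FF libraries (5.85, SE 0.76, adjusted p = 0.00120). All FFPE values lay above all FF values, with FFPE library 3 the highest, and the call held without any 1 library, at 4.603 without FFPE library 3 and 6.61 without FF library 1. Scarna10, which guides modification of spliceosomal RNAs in Cajal bodies, had 57.3, 51.1 and 92.2 CPM in FFPE and 8.77, 4.67 and 12.8 CPM in FF libraries (2.93, SE 0.42), a call that also held without any 1 library. It overlaps exons of Ncapd2 on the same strand. The H/ACA snoRNA Snora21 rose by 3.86 and Snora23 by 3.80, but these calls were lost without FFPE library 1 (adjusted p = 0.0898 and 0.0661) and without FF library 3 (adjusted p = 0.157 for each), and that of Snora23 also without FFPE library 3, at 2.15, or FF library 1 or 2. Snora21 stood at 5.01 and 3.21 without FF library 1 or 2. Snora34 had 10.8, 5.67 and 62.7 CPM in FFPE libraries, against 1.64, 0 and 0.281 CPM in FF libraries. Its log2 fold change was 5.56, against 3.78 without FFPE library 3 (adjusted p = 0.220), and 7.29 and 4.84 without FF library 1 or 2. The call was also lost without FFPE library 1 or FF library 2 or 3 (adjusted p from 0.0715 to 0.184).

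Many snoRNAs are cut from introns of host genes. Of 15 host genes tested, 6 rose and none fell (median 1.28), beside 1.57% called higher over all genes tested. Without FFPE library 3 the count was 4, and it was 4 without FFPE library 1 or FF library 1, 2 without FF library 2 and 3 without FF library 3. Snhg12 had 84.9, 84.6 and 106.5 CPM in FFPE libraries and 28.8, 14.96 and 29.4 CPM in FF libraries (1.92, SE 0.30, adjusted p = 0.00452). Gas5, a growth-arrest transcript that hosts several box C/D snoRNAs, had 280.9, 256.0 and 268.9 CPM in FFPE libraries and 106.9, 94.3 and 115.4 CPM in FF libraries (1.35, SE 0.16, adjusted p = 5.85e-04). The protein-coding hosts Rack1, Rps2 and Eef1b2 had log2 fold changes of -0.20, -0.17 and -0.30, none called. Exons of Snhg12 and Gas5 overlap annotated snoRNAs on the same strand, so reads of a snoRNA and of these hosts cannot be fully separated in these counts. The same holds for Eif4a2, a translation initiation helicase gene whose exons overlap Snora81 and Snord2. It was the only translation factor to rise (1.31, SE 0.22), and its call was lost without FF library 2 (adjusted p = 0.0858).

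Neat1 and Malat1 had the lowest adjusted p of all genes tested. Neat1, the scaffold RNA of nuclear paraspeckles, stood at 1831, 1867 and 1402 CPM in FFPE libraries, against 152.4, 126.3 and 156.6 CPM in FF libraries (3.55, SE 0.15, adjusted p = 2.00e-08). Malat1, a long RNA of nuclear speckles and a neighbour of Neat1 on chromosome 19, had 5475, 4918 and 5309 CPM in FFPE libraries, against 1269, 1063 and 1146 CPM in FF libraries (2.17, SE 0.09, adjusted p = 2.00e-08). The spread within each group was small beside the gap for both genes. Xist, the RNA that silences an X chromosome, had 294.4, 204.0 and 261.3 CPM in FFPE and 74.0, 35.6 and 44.6 CPM in FF libraries (2.31, SE 0.26). Its antisense partner Tsix had 42.3, 20.6 and 37.03 CPM in FFPE and 2.74, 2.20 and 2.81 CPM in FF libraries (3.68, SE 0.53). Exons of Xist and Tsix overlap on opposite strands, and the labels do not say whether the counting used strand. These 4 were the called members of 8 tested nuclear long noncoding RNAs (median 2.24), beside 1.57% called higher over all genes tested. All 8 had positive values, the other 4 being Ftx (1.59, adjusted p = 0.0651), Airn (2.00), Dleu2 (2.88) and Pvt1 (1.42). Here too the filter on low counts can be passed through the FFPE libraries alone. The count of 4 was the same without each of the 6 libraries in turn.

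**Figure D2:**
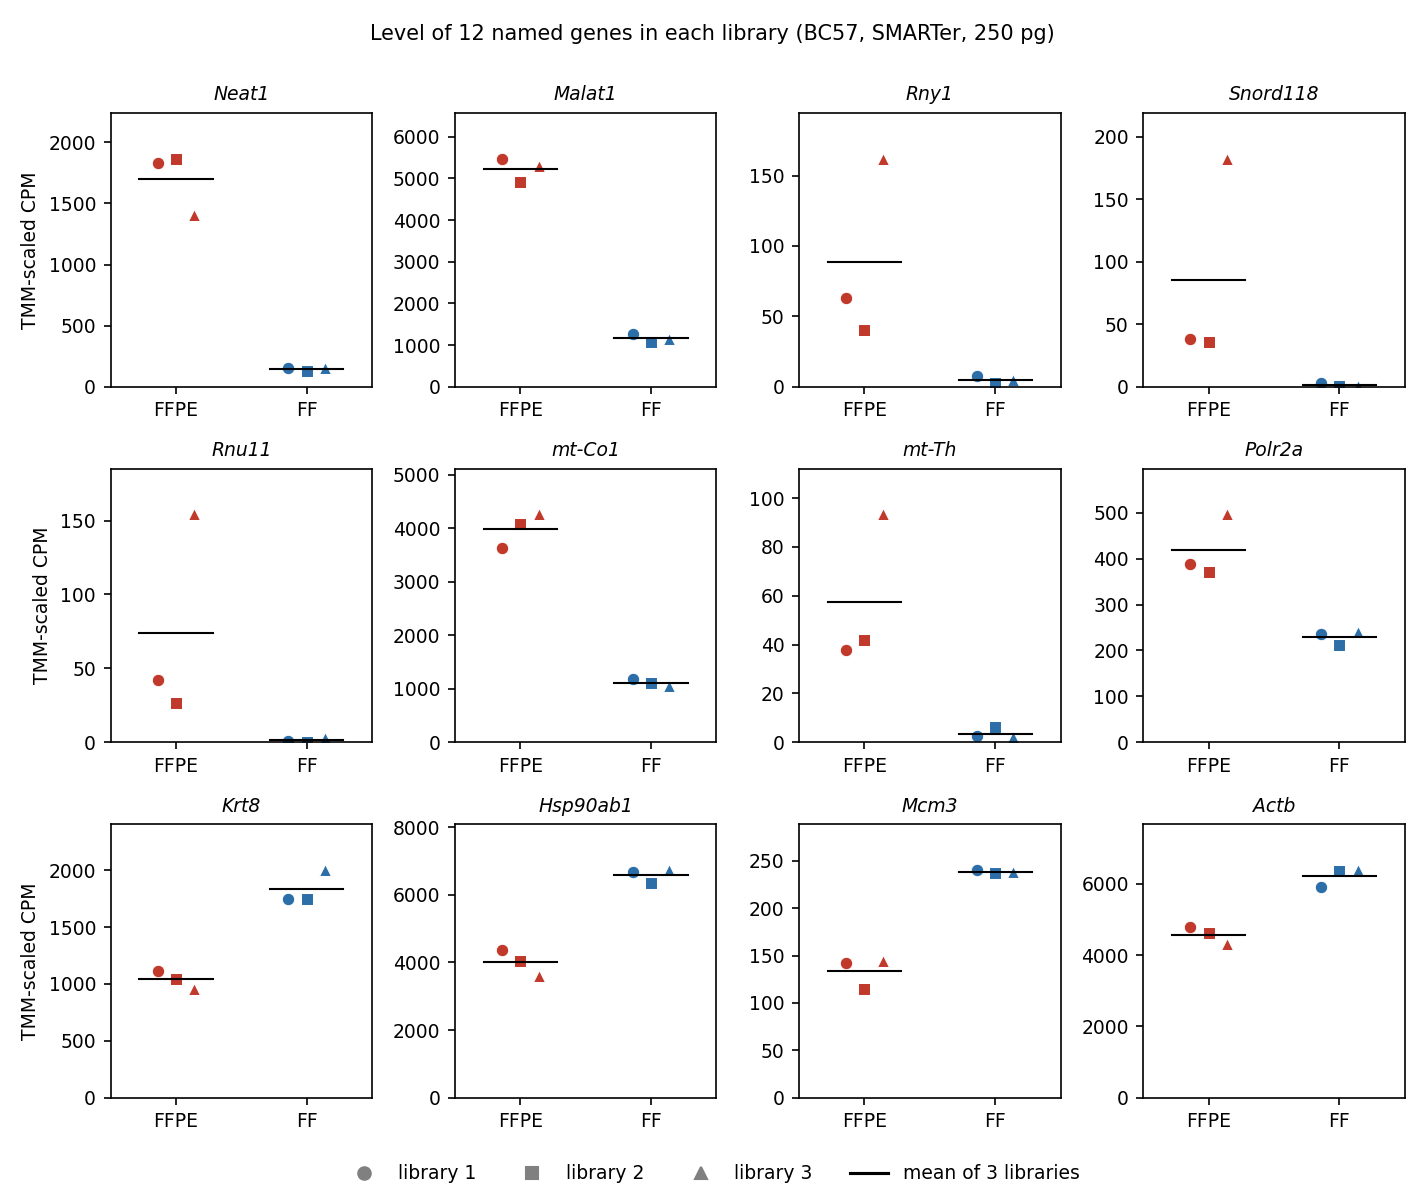
TMM-scaled CPM of 12 genes in each FFPE (left) and FF (right) library, on linear axes that start at 0, with the mean of 3 libraries as a line. Neat1, Malat1, Rny1, Snord118, Rnu11, mt-Co1, mt-Th and Polr2a sit higher in all FFPE libraries, and Krt8, Hsp90ab1, Mcm3 and Actb lower; FFPE library 3 (triangle) is the highest for Rny1, Snord118, Rnu11, mt-Co1, mt-Th and Polr2a.

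Transcripts of the mitochondrial genome were higher in FFPE libraries in each of their classes. Of 13 protein genes, 10 rose and none fell, beside 1.57% called higher over all genes tested. Their median was 1.91, with a range from 0.98 to 3.46. mt-Co1, a catalytic subunit of cytochrome c oxidase, had 3639, 4075 and 4266 CPM in FFPE libraries, against 1174, 1103 and 1058 CPM in FF libraries (1.84, SE 0.09, adjusted p = 9.30e-08). Subunit genes of complex I included mt-Nd6 at 2.53 (SE 0.18), mt-Nd4 at 2.42 (SE 0.19) and mt-Nd5 at 2.28 (SE 0.14). mt-Nd5 had 2907, 3015 and 4263 CPM in FFPE libraries, against 719.6, 673.4 and 708.8 CPM in FF libraries. The 3 genes not called were mt-Atp6 (0.98, adjusted p = 0.126), mt-Atp8 (1.63, adjusted p = 0.483) and mt-Nd4l (3.46, adjusted p = 0.219). The count was 8 to 10 without any 1 library. mt-Nd5 and mt-Nd6 overlap on opposite strands.

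The mitochondrial rRNAs rose least among the mitochondrial genes called. mt-Rnr2, the large subunit rRNA, had 63015, 61109 and 47511 CPM in FFPE libraries, against 27351, 31183 and 32827 CPM in FF libraries (0.91, SE 0.09, adjusted p = 1.31e-04). mt-Rnr1, the small subunit rRNA, rose by 0.69 (SE 0.07, adjusted p = 2.28e-04). FFPE library 3 was the lowest FFPE library for both, and both calls held without any 1 library.

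Of 20 tested mitochondrial tRNA genes, 14 rose and none fell (median 2.44), beside 1.57% called higher over all genes tested. Those scarcely read in FF libraries, such as mt-Tl2, can pass the filter on low counts through the FFPE libraries alone. The largest rise was that of mt-Tl2, with 35.8, 34.7 and 58.9 CPM in FFPE libraries, against 0, 3.16 and 0.844 CPM in FF libraries (4.85, SE 0.75, adjusted p = 0.00414). mt-Th had 37.6, 41.8 and 93.4 CPM in FFPE libraries, against 2.47, 6.04 and 2.11 CPM in FF libraries (3.98, SE 0.53, adjusted p = 0.00152). mt-Tp, on the other strand, had 67.9, 24.8 and 109.0 CPM in FFPE libraries and 3.84, 2.88 and 7.60 CPM in FF libraries (3.79, SE 0.55, adjusted p = 0.00303). All 3 calls held without any 1 library, and without FF library 2 the values were 6.29 for mt-Tl2 and 4.63 for mt-Th. The genes mt-Th, mt-Ts2 and mt-Tl2 lie side by side between mt-Nd4 and mt-Nd5, and mt-Ts2 (3.95, or 5.80 without FF library 2) overlaps the first base of mt-Tl2. At the low end mt-Tv, the valine tRNA, had 49.3, 38.1 and 26.5 CPM in FFPE and 17.5, 30.3 and 26.9 CPM in FF libraries (0.61, adjusted p = 0.509), with overlapping groups. The count of 14 was 11 without FFPE library 3 (median 1.87), 7 without FFPE library 2, and 7 and 6 without FF library 2 or 3.

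Messages of replication-dependent histone genes end in a stem-loop in place of a poly(A) tail. Of 54 tested, none rose and 2 fell, beside 0.638% called lower over all genes tested. Their median was -0.16, and their summed share was 0.298, 0.304 and 0.286% in FFPE libraries and 0.403, 0.395 and 0.404% in FF libraries. Hist1h1e, a linker histone gene, had 349.8, 362.1 and 250.8 CPM in FFPE libraries, against 609.7, 595.6 and 622.4 CPM in FF libraries (-0.92, SE 0.15, adjusted p = 0.00588). That call was lost without FF library 2 (adjusted p = 0.0530), and the fall of Hist1h1c (-0.67) without any library but FFPE library 3. Histone paralogs can share reads. Of the 5 genes that resemble the ribosomal repeat, none was called (range -0.13 to 0.33).

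Among the nuclear protein-coding genes named here, the largest rises were of genes scarcely read in FF libraries. Such genes can pass the filter on low counts through the FFPE libraries alone, and ranking by fold change favours them. Their low FF level is therefore no separate result. Lrrc4, a gene for a synaptic adhesion protein, had 22.03, 48.9 and 14.3 CPM in FFPE libraries and 0 counts in all 3 FF libraries, at least 186.6-fold higher when the FF group is set to 3 counts in all, and at least 215.69-fold without FFPE library 3 (adjusted p = 9.43e-04). Ttn, the giant muscle protein gene, had 39.6, 19.6 and 104.8 CPM in FFPE libraries, against 4.11, 0.549 and 1.27 CPM in FF libraries (4.92, SE 0.76), with 4.005 without FFPE library 3 and 5.85 without FF library 1. Spon1, a gene for a secreted matrix protein, had 44.6, 55.1 and 89.2 CPM in FFPE libraries, against 2.47, 4.26 and 2.11 CPM in FF libraries (4.38, SE 0.45). Rbm4b, an RNA-binding protein gene, rose by 4.01 (SE 0.57). Of these 4 genes every call held without any 1 library. Ttn, Lrrc4 and Rbm4b share their locus with genes on the other strand. Exons of Ttn and Rbm4b overlap those of such a gene, while those of Lrrc4 do not.

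Polr2a, which encodes the largest subunit of RNA polymerase II, had 388.1, 370.4 and 497.4 CPM in FFPE libraries, against 236.8, 212.3 and 240.4 CPM in FF libraries (0.86, SE 0.15, adjusted p = 0.00941). It was the only one of 16 housekeeping genes to rise, and its call was lost without FF library 2 or 3 (adjusted p = 0.116 and 0.0676).

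The 75 nuclear protein-coding genes that fell did so by smaller steps, and they included abundant chaperone and keratin messages. The list counts here and below stand beside 0.638% called lower and 1.57% called higher over all genes tested. Of 16 heat shock genes tested, 5 fell and none rose (median -0.36). Hsp90ab1, the constitutive cytosolic Hsp90 gene, had 4375, 4028 and 3592 CPM in FFPE libraries, against 6680, 6355 and 6741 CPM in FF libraries (-0.72, SE 0.08, adjusted p = 3.08e-04). Hspa8, the constitutive Hsp70 gene, had 2180, 2412 and 2241 CPM in FFPE and 3475, 3583 and 3258 CPM in FF libraries (-0.59, SE 0.08). Both calls held without any 1 library, although exons of Hspa8 overlap snoRNAs of the Snord14 family, of which Snord14c and Snord14d rose. Hsp90aa1 fell by 0.59, a call lost without FF library 2 (adjusted p = 0.0734). Hspa5, the chaperone of the endoplasmic reticulum, fell by 0.73, a call lost without FF library 1 or 2 (adjusted p = 0.0549 and 0.0886). The stress-induced genes Hspa1a and Hspa1b had log2 fold changes of 0.01 and -0.09, neither called. The count of 5 was 3 without FF library 1 and 2 without FF library 2.

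Of 20 epithelial and BC57 genes, 4 fell, all keratins of simple epithelium. Krt8 had 1113, 1046 and 959 CPM in FFPE libraries, against 1748, 1750 and 2005 CPM in FF libraries (-0.82, SE 0.10, adjusted p = 8.95e-04). Its partner Krt18 had 1278, 1311 and 1184 CPM in FFPE and 1982, 1871 and 2041 CPM in FF libraries (-0.64, SE 0.09, adjusted p = 0.00259), and both calls held without any 1 library. Krt19 (-0.77) and Krt7 (-0.51) also fell. The call of Krt19 was lost without FFPE library 1 or FF library 2 or 3 (adjusted p from 0.0565 to 0.0843), that of Krt7 without any 1 FF library (adjusted p from 0.0518 to 0.0763), and the count of 4 was 2 without FF library 2 or 3. Hmga2, a chromatin gene active in this line, had 263.4, 222.2 and 188.9 CPM in FFPE and 149.9, 110.4 and 181.3 CPM in FF libraries (0.61, adjusted p = 0.166). Upk2 had 4.01, 8.51 and 25.7 CPM in FFPE and 2.47, 1.92 and 0.985 CPM in FF libraries (adjusted p = 0.184).

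Of 33 translation factors, 6 fell and 1 rose (median -0.42, against 0.02 over all genes tested), and 32 of the 33 had a negative log2 fold change. Eef2, the elongation factor that moves the ribosome, fell by 0.62 (adjusted p = 0.00319), a call that held without any 1 library, and the initiation factor genes Eif3b and Eif3g by 0.61 and 0.63. The fall of Eif3b was lost without FFPE library 1 or any 1 FF library (adjusted p from 0.0697 to 0.185), and that of Eif3g without any library but FFPE library 3 (adjusted p from 0.0633 to 0.165). The count of 6 was 1 without FFPE library 1 or any 1 FF library, 3 without FFPE library 2 and 9 without FFPE library 3. Of 83 cytosolic ribosomal protein genes, 6 fell and none rose (median -0.21). Rpl19 had 607.4, 659.5 and 617.3 CPM in FFPE libraries, against 1098, 944.5 and 987.9 CPM in FF libraries (-0.68, SE 0.11, adjusted p = 0.00591), and its call held without any 1 library. The count of 6 was 2 without FFPE library 1 and 1 without any 1 FF library.

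Actb, the cytoplasmic actin gene, had 4776, 4633 and 4305 CPM in FFPE libraries, against 5908, 6365 and 6400 CPM in FF libraries (-0.45, SE 0.07, adjusted p = 0.00518). Its call was lost without FF library 2 or 3 (adjusted p = 0.0688 and 0.0594). Gapdh, the glycolytic enzyme gene, had 705.3, 883.8 and 696.5 CPM in FFPE libraries and 1056, 1160 and 1029 CPM in FF libraries (-0.51, SE 0.12, adjusted p = 0.0497). It lay at the threshold, and the call was lost without any library but FFPE library 2 (adjusted p from 0.0589 to 0.290). Of 16 glycolysis genes 2 fell, Gapdh and Pkm (-0.53, a call lost without FFPE library 2 or any 1 FF library). A negative log2 fold change was seen in 15 of the 16, beside a median of 0.02 over all genes tested. The count was 1 without FFPE library 1, 2 or 3 and 0 without any 1 FF library.

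Of 40 cell cycle genes, 2 fell, both of the replicative helicase. Mcm3 had 142.0, 114.4 and 144.8 CPM in FFPE libraries, against 240.9, 236.9 and 237.8 CPM in FF libraries (-0.84, SE 0.16, adjusted p = 0.0168), and Mcm7 fell by 0.76 (adjusted p = 0.0219). Both calls were lost without FFPE library 1 or any 1 FF library, and that of Mcm3 also without FFPE library 2 (adjusted p = 0.0501). Mki67, a proliferation marker, had 1119, 1224 and 898 CPM in FFPE and 904.0, 739.8 and 714.1 CPM in FF libraries (0.46, adjusted p = 0.116), and without FFPE library 3 it was called higher (0.57, adjusted p = 0.0160). Of 33 proteasome genes 1 fell, Psma7 (-0.97), a call lost without FFPE library 2 or any 1 FF library, and 1 of 73 nuclear oxidative phosphorylation genes, Atp5b (-0.43), a call lost without any library but FFPE library 3. No test set the few calls of these lists apart from the 0.638% called lower over all genes tested. No member was called among 22 cholesterol synthesis, 23 immediate early, 18 integrated stress response, 13 hypoxia and 35 SR and hnRNP splicing factor genes, and their medians lay between -0.33 and 0.20. With 2.2% of all genes called, lists of this size can lack calls without differing from other genes. In the 2 ng libraries described below, without FFPE library 3, 18.9% of all genes were called. Each of these lists held calls there, such as 2 higher and 8 lower of the 35 splicing factor genes.

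**Figure D3:**
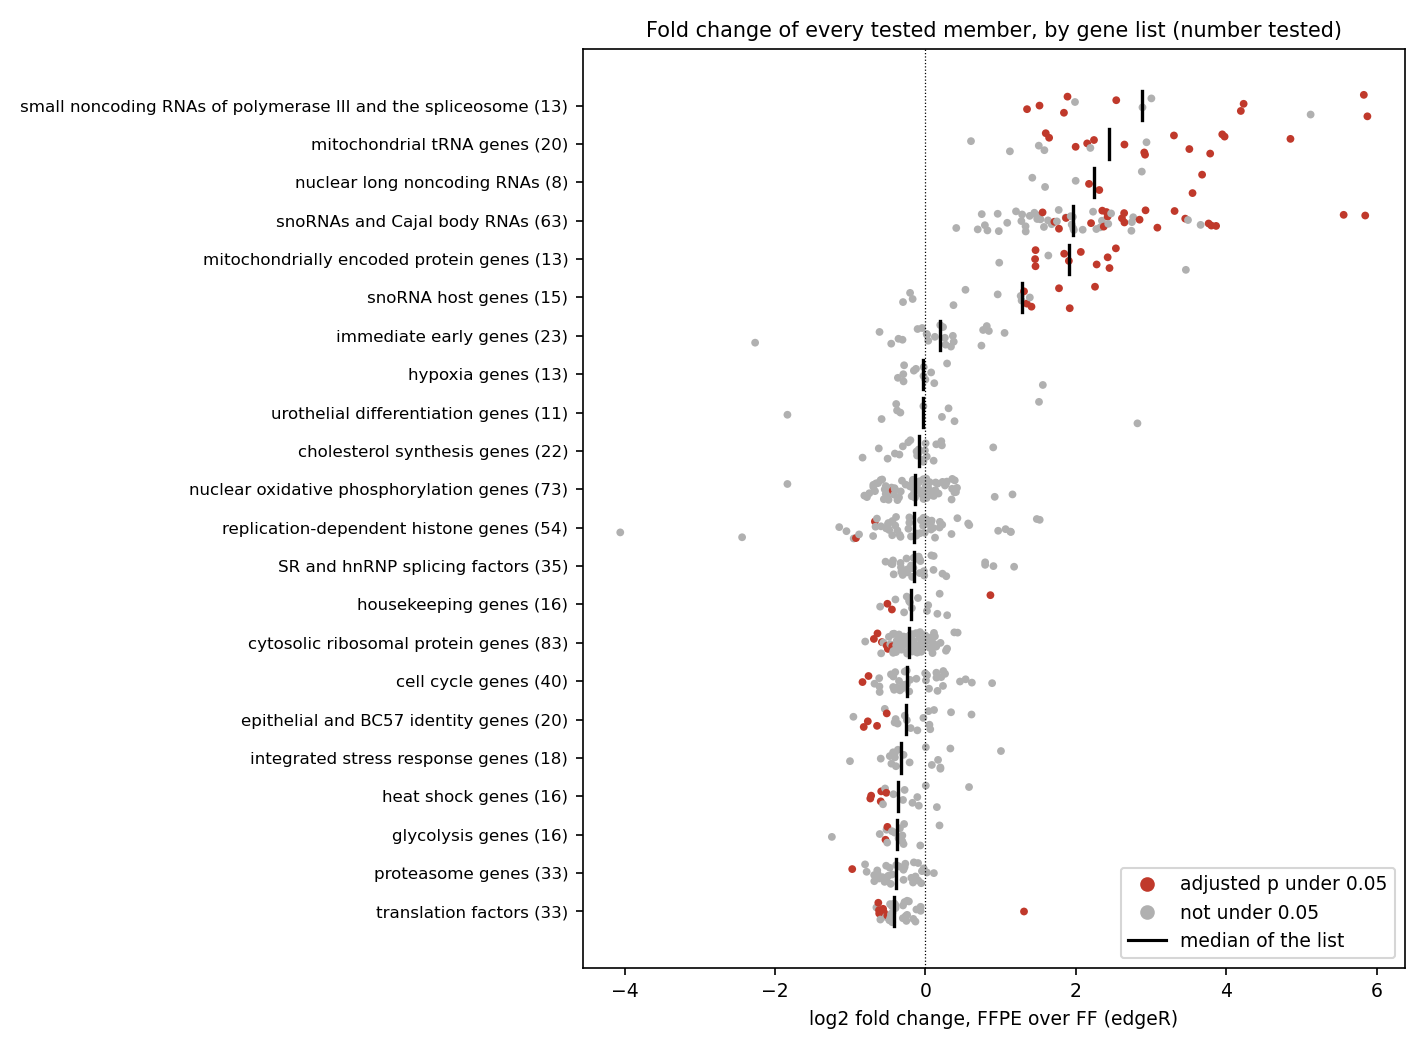
Log2 fold change (FFPE over FF) of every tested member of each list with at least 8 tested members, red where the adjusted p was under 0.05, with the list's median as a black bar and the number tested in brackets. The small RNA, mitochondrial and nuclear long noncoding RNA lists lie to the right of 0, while the heat shock, translation factor, proteasome and glycolysis lists have medians between -0.42 and -0.36.

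The genes of largest fall, among those that met the naming rule given below, were less abundant. Spg21 had 14.8, 11.6 and 8.84 CPM in FFPE libraries, against 55.1, 29.9 and 47.6 CPM in FF libraries (-1.90, SE 0.39, adjusted p = 0.0237). Rassf7 (-1.75), Gtf2e1 (-1.72), a general transcription factor gene, and Zfp277 (-1.67) came next. The other 6 of the 10 largest falls under that rule were Nudt9 (-1.36), Dbnl (-1.08), Tubg1 (-1.02), Suds3 (-1.02), Fkbp4 (-0.9995) and Psma7. All 10 lost their call when some single library was left out. Dbnl and Fkbp4 lost it without any 1 FF library, Gtf2e1 without any 1 of the 6, and the other 7 without 4 or 5 of the 6. Without FFPE library 3, 9 of the 10 were called, the exception being Gtf2e1 (adjusted p = 0.0514).

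Fold changes of nuclear protein-coding genes moved with the exon length of the gene. Of 2091 genes with at least 8000 nt of annotated exons, 59 rose (2.82%) and 5 fell (0.239%), with a median of 0.20. Of 3209 genes with at least 2000 and under 4000 nt, 7 rose (0.218%) and 33 fell (1.03%), with a median of -0.11, and of 247 genes under 1000 nt none was called (median -0.13). Long genes that rose included Ahnak, which encodes a giant scaffold protein, with 5731, 5835 and 5148 CPM in FFPE libraries, against 3451, 2662 and 2658 CPM in FF libraries (0.93, SE 0.10, adjusted p = 3.08e-04). The histone methyltransferase gene Kmt2d rose by 1.44 (SE 0.21) and Syne2, which encodes a giant protein of the nuclear envelope, by 1.34 (SE 0.19). These 3 calls held without any 1 library. Spearman's rho between log2 exon length and log2 fold change was 0.21 over 10910 genes, a description across genes that share libraries. Median level rose with length too, at 3.98 log2 CPM under 1000 nt and 5.45 log2 CPM at 8000 nt and above. Over the same genes rho between level and log2 fold change was -0.17, of opposite sign to that of length. The part of level was not tested. By GC content the median was 0.10 under 42% and -0.09 at 54% or more. The longest class had, without FFPE library 3, 77 higher and 8 lower of 2118 genes (median 0.17).

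**Figure D4:**
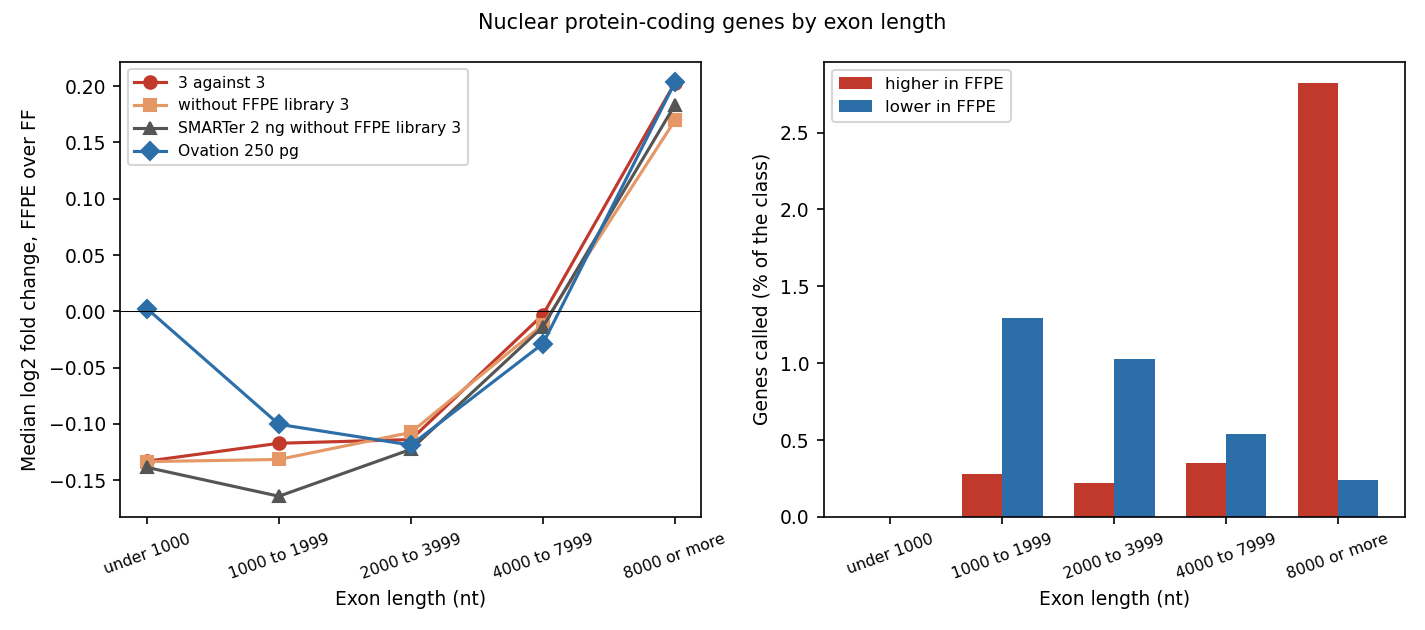
Nuclear protein-coding genes by annotated exon length (nt) in 5 classes. The left panel gives the median log2 fold change (FFPE over FF) in 4 sets of libraries, and the right panel the percent of genes called higher and lower; the longest class has a median of 0.20 and 2.82% higher against 0.239% lower in the 3 against 3 comparison.

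By the same design text, libraries of the same fixed and frozen samples were also made from 2 ng with SMARTer and from 250 pg with the Ovation SoLo kit, in libraries that share none of the 6 above. At 2 ng, 2291 of 12859 genes were called (17.8%), with 9.25% higher and 8.57% lower. Leaving out FFPE library 3 of that input gave 2487 of 13175 (18.9%), with 10% higher and 8.87% lower. This set is used for the 2 ng values that follow, except in the test of the difference by input and its spread. With Ovation 1892 of 12379 were called (15.3%), with 8.64% higher and 6.64% lower. Of the 273 genes, 266 were tested at 2 ng, 264 had the same direction and 252 were called in that direction, 92.3% of the 273 and 10.1% of the 2487. With Ovation, 258 were tested, 253 had the same direction and 223 were called in that direction, which is 81.7% of the 273 and 11.8% of the 1892. Over all genes tested in both sets, the direction was the same for 68.5% at 2 ng and 65.2% with Ovation. Neat1 was higher by 3.76 at 2 ng and by 3.92 with Ovation, Rny1 by 3.57 and 3.07, Snord118 by 3.82 and 4.11, and mt-Co1 by 1.78 and 1.499. Krt8 was lower, at -0.76 and -1.02, and Hsp90ab1 at -0.66 and -0.79, all of them called in both.

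Of the 10 largest rises under the naming rule, 9 were called at 2 ng and 8 of 8 tested with Ovation. Of the 10 largest falls under the same rule, 5 were called at 2 ng and 2 of 10 with Ovation. Spg21 had log2 fold changes of 0.05 at 2 ng and 0.03 with Ovation (adjusted p = 0.875 and 0.954), and Zfp277 of -0.18 and 0.02 (adjusted p = 0.478 and 0.974). Alas2, the heme synthesis enzyme of red cell precursors, had 5.01, 14.7 and 0 CPM in FFPE libraries and 0 counts in all FF libraries. It was tested and called only without FFPE library 3 (at least 59.95-fold higher, adjusted p = 0.0270), and was also higher at 2 ng (3.59) and with Ovation (5.08). The call held in only 7 of 11 alternatives, and limma on the deposited log2 values was among those that lost it. Exons of Alas2 overlap those of Apex2 on the opposite strand. The erythroid list summed to 7.01, 17.5 and 17.3 CPM in FFPE and 1.10, 2.61 and 0.844 CPM in FF libraries. These sums rest on few genes. Alas2 held 14.7 CPM in FFPE library 2, and in FFPE library 3, where Alas2 was at 0, Slc4a1 stood at 17.3 CPM. With all 3 FFPE libraries of both inputs, the difference between the 250 pg and the 2 ng effect passed for none of 14045 genes in edgeR (0%, 640 at an unadjusted p under 0.05), and for 4 in DESeq2. That fit shares a dispersion over libraries of unlike spread. The common coefficient of variation between libraries was 0.471 at 250 pg and 0.168 at 2 ng, with FFPE library 3 of each input kept. A count of 0 therefore does not show that the effects are equal.

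**Figure D5:**
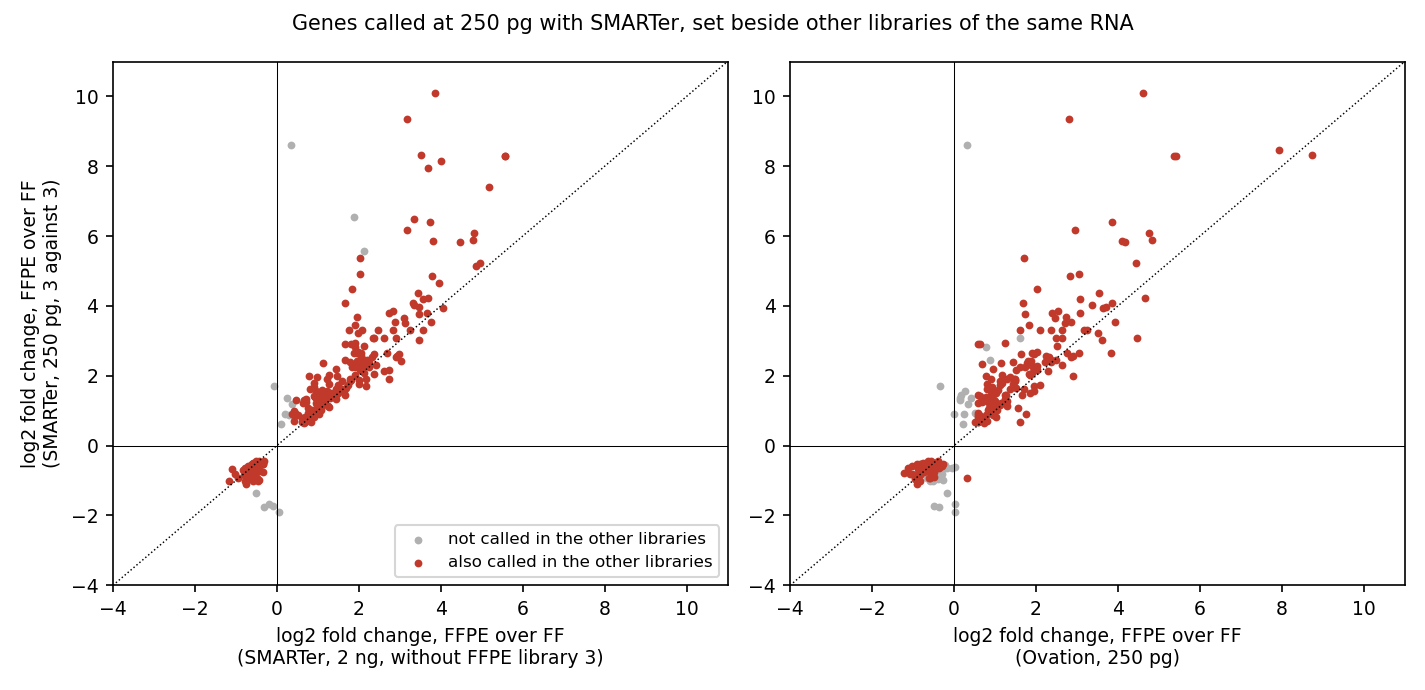
Log2 fold change (FFPE over FF) of the genes called with SMARTer at 250 pg (vertical axis) against that in SMARTer libraries from 2 ng without FFPE library 3 (left) and in Ovation libraries from 250 pg (right); red genes were also called there and the dotted line marks equality. Nearly all points lie in the quadrants of equal direction, and many of the largest rises lie above the line.

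The difference between the SMARTer and the Ovation effect at 250 pg passed for 11 of 13606 genes (0.0808%), 4 higher with SMARTer (0.0294%) and 7 lower (0.0514%, 938 at an unadjusted p under 0.05). This fit also shares a dispersion over unlike libraries, with a common coefficient of variation of 0.471 with SMARTer and 0.235 with Ovation. Rn7sk rose with SMARTer, by 1.35, and stood at 0.15 with Ovation (adjusted p = 0.0514), a difference of 1.15 (SE 0.11, adjusted p = 1.99e-05). Both mitochondrial rRNAs rose less with SMARTer. mt-Rnr1 was higher by 0.69 with SMARTer and by 1.61 with Ovation (difference -0.98, adjusted p = 7.43e-04). Basp1, a membrane protein gene of the growth cone, had 154.5, 177.1 and 125.4 CPM in FFPE and 329.9, 272.7 and 275.1 CPM in FF SMARTer libraries (-0.94, adjusted p = 0.0111). It was the only one of the 273 genes that Ovation called in the opposite direction (0.32, adjusted p = 0.0460). The count of 11 was 22, 19 and 24 without SMARTer FFPE library 1, 2 or 3.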

How the data were processed

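RNA from both parts of a divided BC57 pellet was sequenced in paired reads of 100 nt, per the labels. Per the submitters' processing notes, reads were aligned to mm10 with STAR and counted per gene with featureCounts, with SAMtools also named. No label gives their versions, the annotation or the strand setting. The authors deposited raw counts of reads per gene for 39179 Ensembl genes. Their deposited log2 values were recomputed as log2 of count times 1000 over the library's upper quartile, plus 1, within 5.33e-14, and served in an alternative only. Symbols, exons and coordinates come from GENCODE M21, GRCm38 (37693 matched, 1486 not).

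From the counts, filterByExpr, TMM and the quasi-likelihood test of edgeR 4.0.16 in R 4.3.3 gave log2 fold changes (FFPE over FF), with Benjamini-Hochberg adjusted p over all genes tested and a threshold of 0.05. SE is the fold change over the root of F. The fits, interaction terms included, were tested on simulated data. The simulated libraries of a fit shared a single dispersion, so groups of unlike spread were not covered. Alternatives used DESeq2 1.42.0, limma 3.58.1, other scalings and filters, thinning, a replicate block and leaving out each library.

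The 6 libraries, the 29 gene lists and the tests were chosen with earlier results of these data known, and some lists come from that earlier work. Named genes are, per fit and direction, the 10 of largest fold change among those called with at least 20 CPM in the higher group, separate groups and a standard symbol, up to 4 called members per list (otherwise 2 of highest level), up to 5 per direction in each interaction, and Gapdh, Actb, Neat1, Malat1, mt-Co1, Upk2 and Hmga2. Other genes named, such as Rpph1, Rmrp, Gas5, Scarna10, Eef2, Ahnak, Kmt2d, Syne2 and the marker genes, were chosen after their values were seen.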

Additional observations from a re-analysis of the deposited data

Results flagged for a closer look

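The difference between the SMARTer and the Ovation effect of fixation at 250 pg, tested as an interaction over 12 libraries, passed for 11 genes. They drew attention because the same contrast differed between kits. In each pair below the SMARTer effect comes first and is followed by the Ovation effect, both as log2 fold change of FFPE over FF.

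Higher with SMARTer were Rn7sk at 1.35 and 0.15 (difference 1.15), the complex I gene mt-Nd3 at 1.46 and 0.17 (1.24), the tyrosine tRNA mt-Ty at 2.91 and 0.58 (2.29), and the histone gene Hist1h4n at 0.01 and -1.88 (1.87). In Ovation libraries Hist1h4n fell (adjusted p = 5.49e-16), while with SMARTer it was not called.

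Lower with SMARTer were the mitochondrial rRNAs mt-Rnr1 at 0.69 and 1.61 (-0.98) and mt-Rnr2 at 0.91 and 1.76 (-0.90), Basp1 at -0.94 and 0.32 (-1.31), the actin-binding protein gene Pfn1 at -0.23 and 0.63 (-0.91), and Mir6236, a short gene on chromosome 9, at -0.29 and 1.14 (-1.48). The other 2 genes carry provisional symbols, and one of them, Gm23935, resembles the ribosomal repeat and stood at -0.13 and 0.53. Pfn1 and Mir6236 were not called with SMARTer. Of 15 alternatives, the difference of Pfn1 was called in 6, that of mt-Ty in 8 and that of Basp1 in 11.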

How the results depend on the processing

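No called gene named here, and no library share, changed direction under the alternatives run, while some genes that were not called, such as Klf6, Cnn1 and Csf1r, changed sign. List medians kept their sign under all alternatives for the lists with called members. The 273 genes called became 247 to 315 under other scalings, a minimum of 10 counts in 3 libraries, thinning, robust dispersion and limma, but 635 with DESeq2 and 652 without a filter on low counts, where 22686 genes were tested. Leaving out 1 library each gave 67 to 311. limma on the deposited log2 values called 133 higher and 114 lower, with the median of all genes shifted to -0.12. Without FFPE library 3, the count of 311 was 1422 with DESeq2 (714 higher, 708 lower), 138 with limma (61 higher, 77 lower, median of all genes -0.14) and 715 without the filter (377 higher, 338 lower). It was 85 to 925 when 1 further library was left out, and where 1 FFPE library remained it is assumed to vary like the FF libraries. The cause of these shifts was not tested. Thinned to the smallest total, 273 genes were called of 11394 that passed the filter, against 12388 at full depth.

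The difference by input was called for 0 genes in edgeR under every alternative and for 4 in DESeq2. The difference by kit was called for 11 genes, for 24 without SMARTer FFPE library 3, for 39 with DESeq2 (22 higher, 17 lower) and for 8 to 24 without any 1 library. Leaving out single libraries for these differences and for library shares was chosen after seeing the data. Shares moved by less than the spread between libraries, but the gap between FFPE and FF in the snoRNA share was 0.229 percentage points without FFPE library 3, against 0.387 with it, and that in genes detected 311 against 1220. Of 75 named genes called, 36 were called without each of the 6 libraries in turn.

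Labels share replicate numbers, but same-numbered libraries did not deviate together (correlations -0.07, 0.02 and -0.03). With so few and noisy libraries these values cannot exclude a pairing by number, and the main fit used none. With the replicate block 235 genes were called, 213 of them among the 273.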

Other observations

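Outside the lists, genes called lower without FFPE library 3 and not with it include Jmjd6, a hydroxylase gene of splicing regulation, with 38.3, 29.1 and, in library 3, 60.2 CPM in FFPE and 63.6, 87.2 and 85.1 CPM in FF libraries (-1.23, adjusted p = 0.0308, against 0.159 with library 3), and Ndc80, a kinetochore gene, with 35.3, 24.8 and 36.6 CPM in FFPE and 76.5, 55.5 and 78.9 CPM in FF libraries (-1.23, adjusted p = 0.0436, against 0.0555 with library 3). Both were also lower at 2 ng without FFPE library 3 (-0.63 and -0.54, adjusted p = 0.00434 and 0.00445). In Ovation libraries Jmjd6 fell (-0.79, adjusted p = 0.0217), while Ndc80 was not called (-0.34, adjusted p = 0.345). The genes Rnf168 and Pxk had the same direction without FFPE library 3 (-1.85 and -2.31), but stood at 0.06 and -0.07 at 2 ng and at 0.05 and -0.42 with Ovation, none of these called.

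Among box C/D snoRNA genes, the letters ATGATGA stood in 3 of 10 called genes and in 12 of 29 tested, and CTGA in the last 12 bases of 10 of 10 called and 26 of 29 tested.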
